A study of Mus musculus with 8 samples.

Results

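The midbrain and isthmus patterning transcription factors described here were 10 genes, *En1*, *En2*, *Pax2*, *Pax5*, *Pax3*, *Pax7*, *Otx2*, *Gbx2*, *Lmx1a* and *Lmx1b*. They were taken by name from the 54752 genes listed in the count tables, and all 10 of 10 were found and passed the filter on low counts. The 8 brains were those of C57BL/6 wild type fetuses (C57BL/6Slac in the study's methods) at embryonic day E15.5. In the stress group (brains F34 and F35 of females, M28 and M29 of males) the pregnant dam had been exposed to chronic unexpected mild stress (CUMS), and in the control group (brains F36 and F37 of females, M30 and M31 of males) the dam had stayed in its home cage. Each group held 4 brains, 2 of each sex. By the litter numbers in the study's sample sheet, the 4 control brains shared 1 litter and the 4 stressed brains shared 1 other, so that litter and condition cannot be told apart, and p-values measure the spread between these littermates. The 17865 genes that passed the filter (edgeR's filterByExpr, minimum count 10) were tested for condition by edgeR's quasi-likelihood method, with sex in the model. Here, "called" means a Benjamini-Hochberg adjusted p under 0.05 over all of these genes, CPM is the depth-scaled count on library totals adjusted by edgeR's TMM method, and Log2FC is stress vs. control.

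These factors divide the early neural tube around the boundary between midbrain and hindbrain, the isthmus, which acts as a signalling center through FGF8 and WNT1. *Otx2* is made in front of the boundary, in forebrain and midbrain, and *Gbx2* behind it, and the border where they meet positions the organizer. *Pax2*, *Pax5*, *En1* and *En2* are turned on across the boundary and keep the midbrain and cerebellar territory, *Pax3* and *Pax7* mark the dorsal neural tube including the roof of the midbrain (the tectum), and *Lmx1a* and *Lmx1b* act in the floor of the midbrain in the lineage of dopamine neurons. By this stage several of them also serve in differentiating neurons, such as *Gbx2* in the thalamus and *Lmx1b* in serotonin neurons and the dorsal spinal cord.

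Of the 10 genes, 8 form 4 paralog pairs that descend from a common ancestor, and each pair keeps stretches of identical coding sequence where a read could in principle not be placed. The longest identical run of each pair was therefore read from the GENCODE transcripts (vM21, GRCm38), and is shown in capitals with 12 bases of the coding sequence on each side.

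En1: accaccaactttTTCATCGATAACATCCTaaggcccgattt
En2: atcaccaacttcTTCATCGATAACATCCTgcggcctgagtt
Pax2: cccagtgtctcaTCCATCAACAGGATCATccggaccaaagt
Pax5: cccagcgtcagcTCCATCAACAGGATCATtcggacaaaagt
Pax3: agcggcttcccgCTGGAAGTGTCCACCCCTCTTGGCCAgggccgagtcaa
Pax7: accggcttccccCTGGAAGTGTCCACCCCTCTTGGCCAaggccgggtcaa
Lmx1a: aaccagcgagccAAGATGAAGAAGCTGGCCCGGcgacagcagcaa
Lmx1b: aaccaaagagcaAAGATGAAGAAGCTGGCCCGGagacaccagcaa

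The shared run was 17 bases long in *En1* and *En2*, 17 in *Pax2* and *Pax5*, 26 in *Pax3* and *Pax7* and 21 in *Lmx1a* and *Lmx1b*, in each case shorter than the sequenced reads. In *En1* it lay at chr1:120603360-120603376 (plus strand) and in *En2* at chr5:28166722-28166738 (plus strand), in the coding part of the first exon of each, where both proteins carry the EH1 repression motif that binds Groucho corepressors. The run of *Pax2* (chr19:44761875-44788782, plus strand) and *Pax5* (chr4:44682728-44691845, minus strand) is part of the paired domain that binds DNA, and crosses an intron in both. The runs of *Pax3* (chr1:78195468-78196671, minus strand) and *Pax7* (chr4:139830355-139832833, minus strand) also cross an intron, as do those of *Lmx1a* (chr1:167832892-167840920, plus strand) and *Lmx1b* (chr2:33566720-33566887, minus strand), which lie at the end of the homeodomain. No exact run was thus as long as a read in any of the 4 pairs, and the members of a pair are treated below as separate measurements.

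The 10 genes together received 4106 to 5003 counts per brain, out of totals of 25320109 to 29105710, and no gene had fewer than 150 counts in any brain. Divided by exon length, the control brains gave the order *Otx2* (9.02 ± 0.666 CPM per kb, SD, n = 4), *En2* (5.95 ± 0.322), *En1* (5.31 ± 0.388) and *Gbx2* (4.86 ± 0.296). A lower tier followed with *Pax7* at 2.56 ± 0.231 CPM per kb, *Pax2* at 2.45 ± 0.342, *Lmx1b* at 2.19 ± 0.457, *Lmx1a* at 1.896 ± 0.208, *Pax5* at 1.78 ± 0.146 and *Pax3* at 1.18 ± 0.0772. Between neighbours in that order, the ranges of the 4 control brains were apart only for *Otx2* over *En2*, *Gbx2* over *Pax7* and *Pax5* over *Pax3*, and all other neighbours overlapped. In the stressed brains the order was the same except that *Pax5* (2.09 ± 0.124 CPM per kb) stood above *Lmx1a* (1.92 ± 0.102), with overlapping ranges. The length used was the whole annotated exon length, which overstates the transcript of a gene with many isoforms such as *Pax5*. For *Gbx2* it also includes the 43.454% of exon bases that another gene covers, where read pairs were assigned to neither gene. The level of *Gbx2* per kb is therefore understated, and its place in the order is uncertain.

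**Figure D1:**
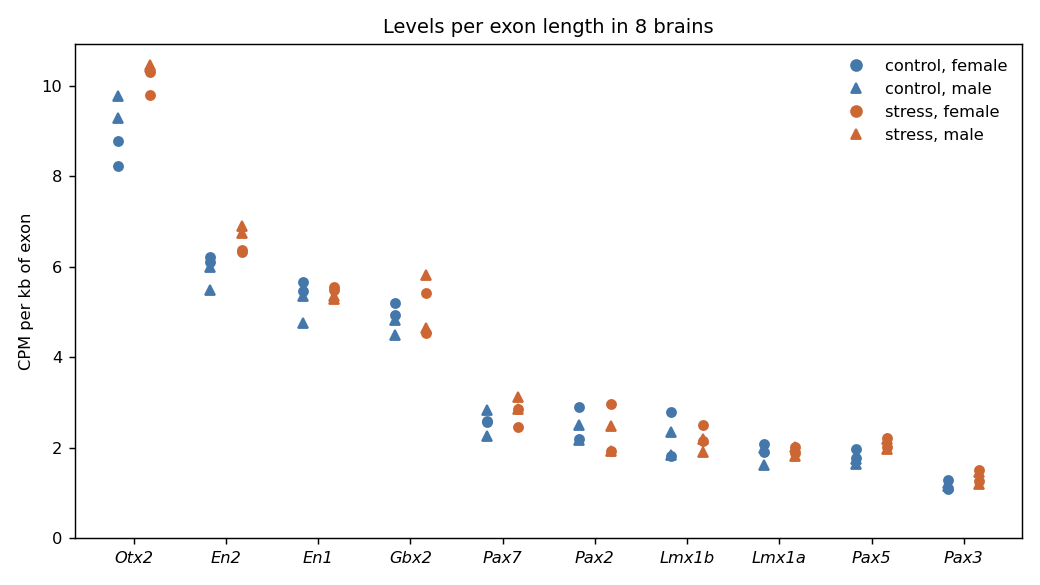
Level of each patterning gene in CPM per kb of exon length (vertical axis) in the 8 brains, with control brains in blue and stressed brains in orange, females as circles and males as triangles. By this measure *Otx2* stands above all others in every brain and *Pax3* is the lowest in every brain. The level of *Gbx2* is understated, since its length includes exon bases shared with another gene.

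Against this order, the stress group differed little, and mostly upward. Of the 10 genes, 8 had a positive and 2 a negative Log2FC, where 50.6% of all tested genes were positive, and the median Log2FC was 0.11 for the 10 genes and 0.0015 for all tested genes. *Otx2* and *Pax5* were higher in the stress group past the threshold, 2 of 10 genes, where 6.49% of all tested genes were called higher, and 0 of the 10 were called lower, where the share was 7.27%. At an unadjusted p under 0.05 the counts were 4 higher and 0 lower, where the shares of all tested genes were 13.2% and 13.7%. DESeq2's Wald test also called 2 of the 10 genes higher and 0 lower, where it called 4.19% and 5.1% of all genes. Among the females alone, 2 brains against 2, 1 of the 10 genes was called higher and 0 lower (1.64% and 2.27% of all genes), and among the males alone 2 and 0 (3.68% and 4.81%). The gene called among the females was *Otx2*, and those called among the males were *Pax5* and *En2*. The groups did not overlap for 2 of the 10 genes, *Otx2* and *En2*, both with stress above, where 8.2% of all tested genes were apart in that direction. In RNA of a whole brain, more cells of a type and more RNA of a gene per cell cannot be told apart.

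**Figure D2:**
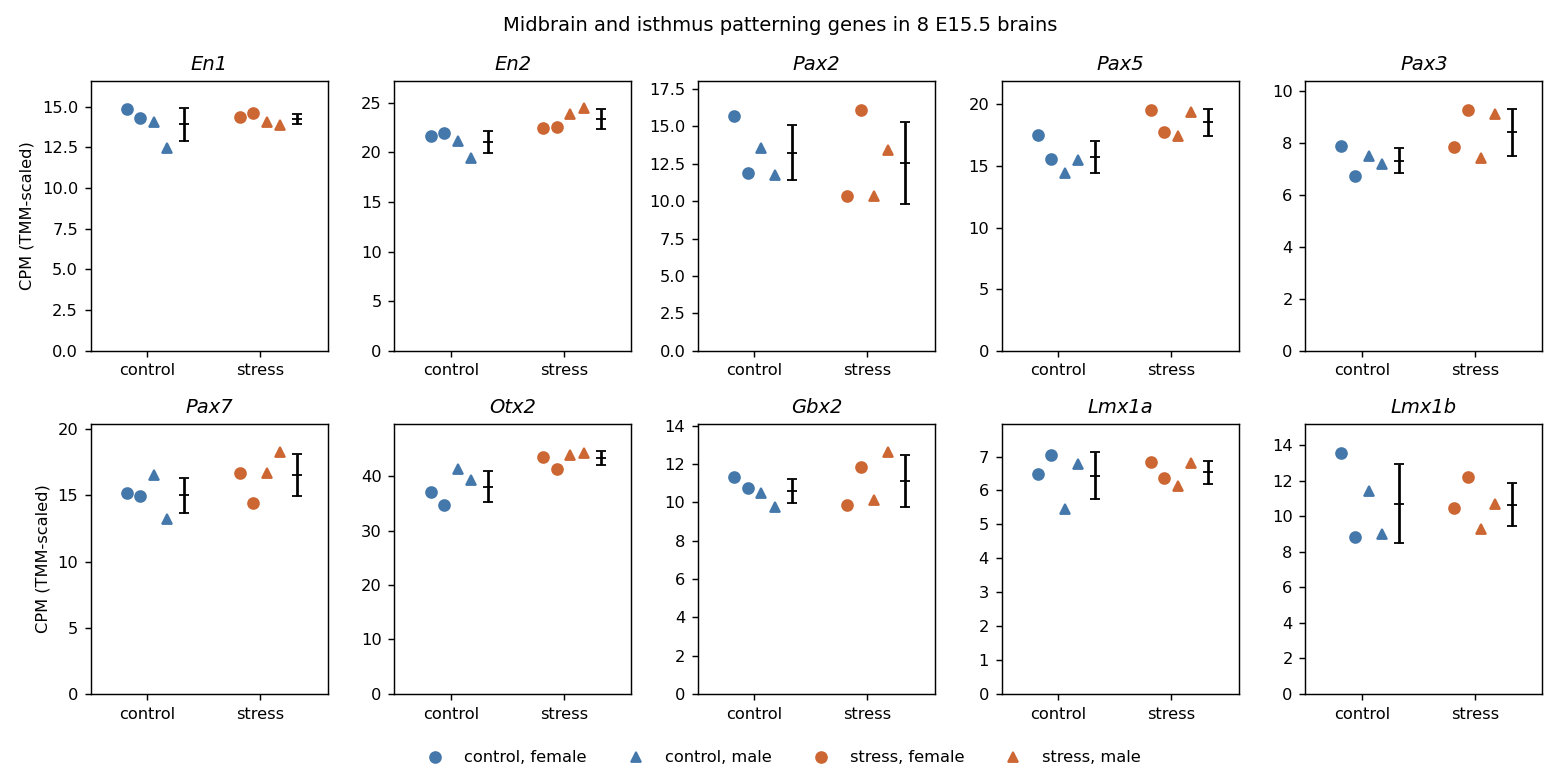
TMM-scaled CPM of each patterning gene (vertical axes, each starting at 0) in the 4 control brains (blue) and 4 stressed brains (orange), with females as circles, males as triangles and the mean ± SD of each group in black. The 4 stressed brains lie above all 4 control brains for *Otx2* and *En2*, and the groups overlap for the other 8 genes.

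*Otx2* (ENSMUSG00000021848.16, chr14:48657677-48673819, minus strand, mm10) encodes the homeodomain factor that specifies forebrain and midbrain. Its CPM was 37.02, 34.7, 41.2 and 39.2 in control F36, F37, M30 and M31, and 43.5, 41.4, 44.0 and 44.2 in stress F34, F35, M28 and M29. All 4 stressed brains lay above the highest control brain, M30, although stress F35 exceeded it by little. The means were 38.1 ± 2.81 CPM and 43.2 ± 1.28 CPM (SD, n = 4 each), a fitted increase of 13.7% (Log2FC = 0.19, SE 0.04, 95% interval 0.10 to 0.27, edgeR adjusted p = 0.00294). *Otx2* was called in all 8 fits that left out 1 brain. It was called among the females alone (Log2FC = 0.24, edgeR adjusted p = 0.0147) and missed the threshold among the males alone (Log2FC = 0.13, edgeR adjusted p = 0.154), and the interaction of sex and stress was not called (Log2FC, males minus females = -0.11, edgeR adjusted p = 0.869). Exons of other genes, *Gm49154* on the same strand and the antisense transcript *Otx2os1*, covered 3.98% of its exon bases. *Otx2os1* had 25 to 48 counts against 985 to 1278 for *Otx2*.

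*Gbx2* (ENSMUSG00000034486.8, chr1:89927956-89931179, minus strand) is the counterpart of *Otx2* behind the boundary and a marker of the embryonic thalamus. It measured 11.3, 10.8, 10.5 and 9.77 CPM in control F36, F37, M30 and M31 against 9.85, 11.8, 10.1 and 12.6 CPM in stress F34, F35, M28 and M29. Stress F34 and M28 lay inside the range of the controls, and stress F35 and M29 above it. The Log2FC was 0.07 (SE 0.08, 95% interval -0.09 to 0.23, edgeR adjusted p = 0.632). An antisense gene, *D130058E05Rik*, covers 43.454% of the exon bases of *Gbx2*, and read pairs that fall on exons of both genes were assigned to neither by the counting options. That antisense gene had 15 to 32 counts per brain where *Gbx2* had 272 to 366. The level of *Gbx2* therefore leaves out pairs from the shared exon part, and is uncertain to that extent.

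*Pax5* (ENSMUSG00000014030.15, chr4:44524757-44710487, minus strand) encodes a paired-domain factor that maintains the isthmic territory and is better known from B cells. It had 17.5, 15.6, 14.4 and 15.47 CPM in control F36, F37, M30 and M31 and 19.6, 17.7, 17.5 and 19.4 CPM in stress F34, F35, M28 and M29. The groups overlapped at 1 point, since control F36 was above stress M28 (17.51 against 17.46 CPM). The fitted rise was 18.0%, with means of 15.7 ± 1.29 CPM and 18.5 ± 1.096 CPM (SD, n = 4 each; Log2FC = 0.24, SE 0.06, 95% interval 0.11 to 0.36, edgeR adjusted p = 0.00839). This was the largest Log2FC among the 10 genes in the fit of all 8 brains. The call was lost in 1 of the 8 fits with a brain left out, that without stress M29 (Log2FC = 0.19, edgeR adjusted p = 0.0586). Among the males alone *Pax5* was called (Log2FC = 0.30, edgeR adjusted p = 0.0145), and among the females alone it missed the threshold (Log2FC = 0.17, edgeR adjusted p = 0.288), with no call for the interaction (edgeR adjusted p = 0.904). Exons of the antisense genes *Gm12462* and *5730488B01Rik* covered 8.596% of the exon bases of *Pax5*, where read pairs were assigned to neither gene. *Gm12462* had 4 to 12 counts per brain and *5730488B01Rik* 6 to 15.

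*Pax2* (ENSMUSG00000004231.15, chr19:44756045-44837871, plus strand), the paralog of *Pax5* that appears first at the boundary and is later found in interneurons of the cerebellum, hindbrain and spinal cord, was not called. Its CPM was 15.7, 11.9, 13.6 and 11.8 in control F36, F37, M30 and M31 and 10.4, 16.1, 10.4 and 13.4 in stress F34, F35, M28 and M29. Both groups were wide, with F36 highest among the controls and F35 highest of all, and F34 and M28 the lowest. The Log2FC was -0.08 (SE 0.10, 95% interval -0.29 to 0.14, edgeR adjusted p = 0.686). The coefficient of variation of *Pax2* was 14.0% among control and 22.0% among stressed brains, where counting error alone gave 5.20% in the controls. The per-length ratio of *Pax5* to *Pax2* was 0.680, 0.801, 0.649 and 0.802 in control F36, F37, M30 and M31 and 1.15, 0.674, 1.03 and 0.883 in stress F34, F35, M28 and M29. The group ranges of this ratio overlapped (exact permutation test, two-sided, p = 0.143, adjusted over 4 pairs p = 0.286).

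*En1* (ENSMUSG00000058665.8, chr1:120602418-120607992, plus strand) and *En2* (ENSMUSG00000039095.8, chr5:28165694-28172166, plus strand) are the engrailed factors of midbrain and cerebellum, and *En1* also acts in dopamine neurons and in ventral interneurons of the spinal cord. *En1* measured 14.9, 14.3, 14.0 and 12.5 CPM in control F36, F37, M30 and M31 and 14.4, 14.6, 14.0 and 13.9 CPM in stress F34, F35, M28 and M29. The stressed brains fell inside the range of the controls, and the Log2FC was 0.03 (SE 0.06, 95% interval -0.09 to 0.16, edgeR adjusted p = 0.788). *En2* measured 21.6, 22.0, 21.2 and 19.4 CPM in control F36, F37, M30 and M31 and 22.4, 22.6, 23.9 and 24.5 CPM in stress F34, F35, M28 and M29. All 4 stressed brains were above all 4 control brains by a margin, between control F37 and stress F34, that was smaller than the spread within each group. The edgeR test did not pass the threshold (Log2FC = 0.15, SE 0.05, 95% interval 0.04 to 0.26, adjusted p = 0.0539). The 2 stressed males were the highest of the 8 brains for *En2*. The Log2FC of *En2* was 0.25 among the males (edgeR adjusted p = 0.0183) and 0.04 among the females (edgeR adjusted p = 0.822), and the interaction gave an unadjusted p of 0.0417 and an adjusted p of 0.765 in edgeR, so that the sexes were not shown to differ. This was the smallest interaction p of the 10 genes. None of them was called for the interaction, where 1 of all 17865 tested genes was called. The per-length ratio of *En2* to *En1* was 1.08, 1.14, 1.119 and 1.15 in control F36, F37, M30 and M31 and 1.16, 1.15, 1.26 and 1.31 in stress F34, F35, M28 and M29, and control M31 lay inside the stressed range (exact permutation test, two-sided, p = 0.0571, adjusted over 4 pairs p = 0.229). The smallest p that 4 brains against 4 allow in this test is 0.0286.

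*Pax3* (ENSMUSG00000004872.15, chr1:78101267-78197134, minus strand) and *Pax7* (ENSMUSG00000028736.13, chr4:139737062-139833528, minus strand) are paired-box factors of the dorsal neural tube, and *Pax7* marks the tectum. *Pax3* had 7.86, 6.73, 7.47 and 7.17 CPM in control F36, F37, M30 and M31 and 7.82, 9.24, 7.42 and 9.09 CPM in stress F34, F35, M28 and M29. Stress F35 and M29 stood above every control brain, while F34 and M28 did not. The Log2FC of *Pax3* was 0.20 (SE 0.09, 95% interval 0.02 to 0.38, edgeR adjusted p = 0.136). *Pax7* had 15.2, 15.0, 16.5 and 13.3 CPM in control F36, F37, M30 and M31 and 16.7, 14.4, 16.7 and 18.3 CPM in stress F34, F35, M28 and M29. Here stress F35 was lower than 3 of the 4 control brains, the opposite of its place for *Pax3*, and the Log2FC was 0.14 (SE 0.07, 95% interval -0.0008 to 0.29, edgeR adjusted p = 0.189). The ratio of *Pax7* to *Pax3* per length was 2.17 ± 0.203 in control and 2.101 ± 0.320 in stressed brains (SD, n = 4; exact permutation test, two-sided, p = 0.771).

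*Lmx1a* (ENSMUSG00000026686.14, chr1:167689237-167848741, plus strand) and *Lmx1b* (ENSMUSG00000038765.13, chr2:33560965-33640511, minus strand), LIM-homeodomain factors of the midbrain floor plate and roof plate, had Log2FC near 0. *Lmx1a* measured 6.48, 7.05, 5.44 and 6.78 CPM in control F36, F37, M30 and M31 and 6.84, 6.36, 6.13 and 6.81 CPM in stress F34, F35, M28 and M29, with every stressed brain inside the control range (Log2FC = 0.02, SE 0.09, edgeR adjusted p = 0.908). *Lmx1b* measured 13.5, 8.85, 11.4 and 8.998 CPM in control F36, F37, M30 and M31 and 10.5, 12.2, 9.27 and 10.7 CPM in stress F34, F35, M28 and M29. Control F36 and stress F35 were the highest for *Lmx1b*, as for *Pax2*, and the groups overlapped (Log2FC = -0.01, SE 0.10, edgeR adjusted p = 0.978). The 95% intervals of both genes, -0.16 to 0.21 for *Lmx1a* and -0.21 to 0.20 for *Lmx1b*, bound the change in either direction without showing that none took place. The per-length ratio of *Lmx1b* to *Lmx1a* gave an exact permutation p of 1 (two-sided).

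Since *Pax2* and *Lmx1b* were high in the same 2 brains, Hox genes, which are expressed in hindbrain and spinal cord and not in front of the isthmus, were compared across the same brains. This comparison was added after the values were seen. *Hoxa5* measured 40.0, 13.3, 17.4 and 17.2 CPM in control F36, F37, M30 and M31 and 1.27, 41.8, 0.418 and 12.2 CPM in stress F34, F35, M28 and M29. *Hoxb8*, which is expressed further down the spinal cord, measured 11.4, 0.106, 0.290 and 0.352 CPM in the same control brains and 0, 14.8, 0 and 0 CPM in the same stressed brains, so that above 1 CPM it was found in control F36 and stress F35 and in no other brain. The study's methods describe whole brains with forebrain, midbrain and hindbrain, and its sample sheet lists the tissue in other words, as "half_whole_brain". The Hox level of a brain was taken as the mean log2 CPM of 8 Hox genes, and ran from 0.46 in stress M28 and 1.004 in stress F34 to 2.998 in control F36 and 3.05 in stress F35, with the other brains between 2.14 and 2.44.

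The values of *Pax2* ran with the Hox level, which was brought into the fit after the values of *Pax2* were seen, so that the slope describes these brains and is no independent test. With sex and condition in the edgeR fit, *Pax2* rose by 0.28 on the log2 scale for each unit of Hox level (SE 0.05, edgeR adjusted p = 0.00216). It was 1 of the 20 genes called for this slope, 0.112% of those tested, and 9 of the 20 were themselves Hox genes, most of which define the level. In the 8 fits with 1 brain left out the slope of *Pax2* ran from 0.25 to 0.34, and its edgeR adjusted p was above 0.05 in 2 of them, at 0.0831 without stress F34 and 0.116 without stress F35. The slopes of *Lmx1b* (0.17, SE 0.06), *Pax3* (0.15, SE 0.05) and *Gbx2* (0.13, SE 0.05) had unadjusted edgeR p of 0.00837, 0.00804 and 0.00934 and an adjusted p of 0.568 each. For *Otx2*, *En1*, *En2*, *Pax5*, *Pax7* and *Lmx1a* the slope lay between -0.02 and 0.01. *Pax2*, *Pax3*, *Gbx2* and *Lmx1b* are known from the hindbrain or spinal cord as well as from the isthmus, and so are *En1*, *Pax7* and *Lmx1a*, whose slopes were near 0. Whether the Hox level stands for the cut of the dissection was not tested.

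**Figure D3:**
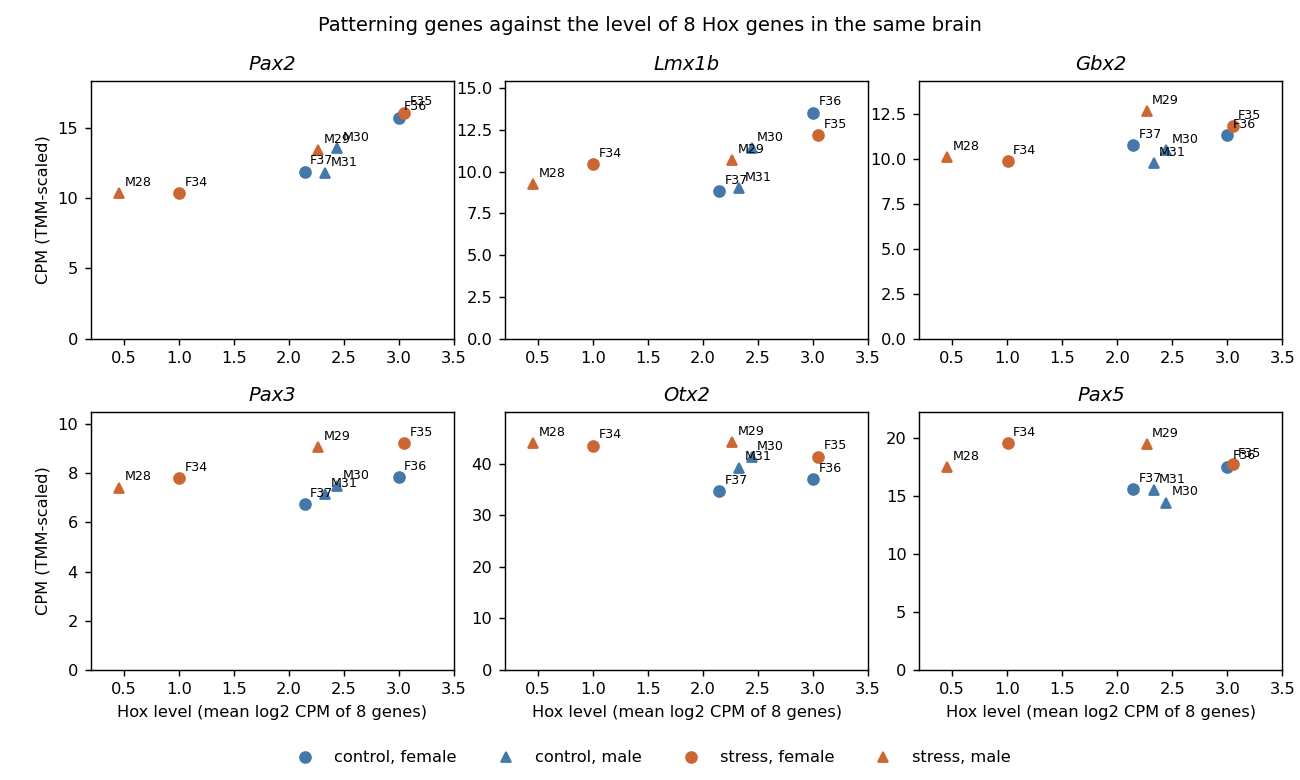
TMM-scaled CPM of 6 patterning genes (vertical axes, starting at 0) against the Hox level of the same brain (horizontal axis, mean log2 CPM of 8 Hox genes), with control brains in blue, stressed brains in orange, females as circles and males as triangles. *Pax2* is lowest in stress M28 and F34, which have the lowest Hox levels, and highest in control F36 and stress F35, which have the highest, while *Otx2* in stress M28 and F34 is about as high as in the other stressed brains.

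With the Hox level as a covariate, the stress difference of *Otx2* (Log2FC = 0.19, edgeR adjusted p = 0.0106) and *Pax5* (Log2FC = 0.25, edgeR adjusted p = 0.0160) remained called. *Pax3* was called as well (Log2FC = 0.31, edgeR adjusted p = 0.0162), which makes 3 of the 10 genes higher and 0 lower, where that fit called 5.36% of all tested genes higher and 6.44% lower. The Log2FC of *Pax2* turned from -0.08 to 0.12 (edgeR adjusted p = 0.307) and that of *Lmx1b* from -0.01 to 0.12 (edgeR adjusted p = 0.469), and neither was called. Without control F36 and stress F35, the genes called higher were *Otx2* (Log2FC = 0.19, edgeR adjusted p = 0.00908), *Pax5* (Log2FC = 0.31, edgeR adjusted p = 0.00171) and *En2* (Log2FC = 0.18, edgeR adjusted p = 0.0465), again 3 of 10, where 5.54% of all tested genes were called higher and 6.55% lower. The brains left out were both of females, so that males outnumbered females in each group of that fit. The part of this imbalance in the call of *En2* was not tested. *Otx2* and *Pax5* were thus the genes called in all 3 of these fits.

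**Figure D4:**
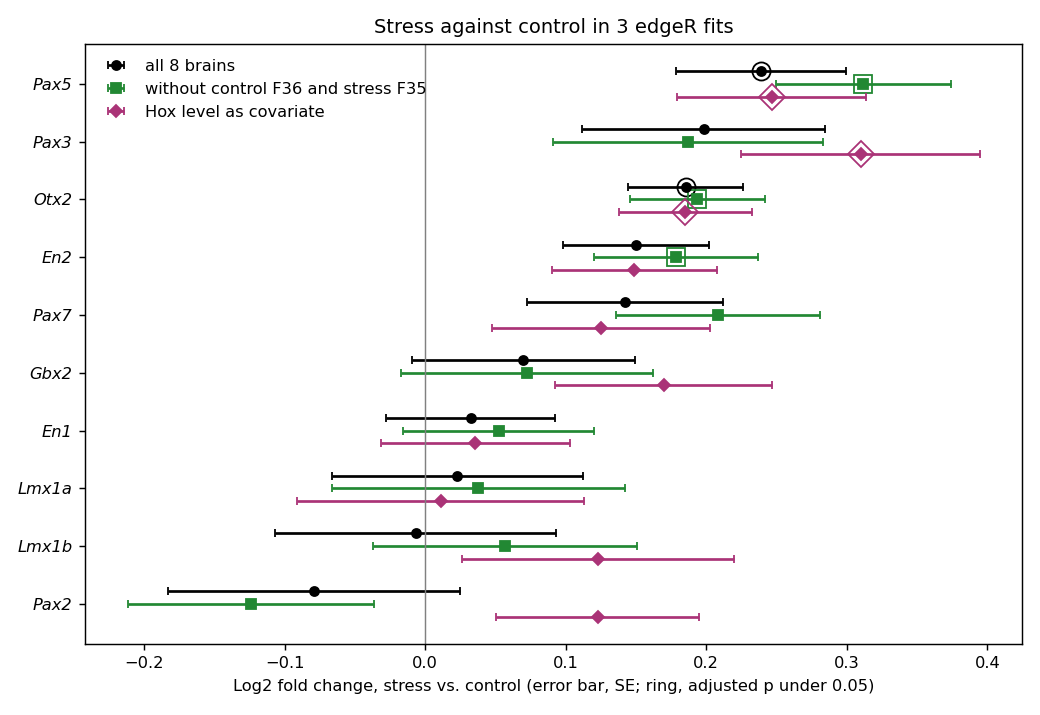
Log2 fold change of stress vs. control with its SE (horizontal axis) for the 10 patterning genes in 3 edgeR fits, with all 8 brains (black circles), without control F36 and stress F35 (green squares) and with the Hox level as a covariate (purple diamonds), where a ring marks an adjusted p under 0.05. *Otx2* and *Pax5* are ringed in all 3 fits, and *Pax2* lies at -0.08 in the first and at 0.12 in the last.

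The starts of the 2 called genes are shown for the sequence around which they are transcribed, from the RefSeq promoter windows on GRCm38.p6, each with 250 bases before and 50 after an annotated start. Of the 10 genes, 8 had such windows, 13 in all, and *Pax5* and *Otx2* had 1 and 4. Motifs searched on both strands were the glucocorticoid receptor site core AGAACA, the CCAAT box CCAAT, and the homeodomain sites TAATCC (OTX type) and TAATTA (engrailed type), and matches are in capitals. The *Pax5* window is chr4:44710645-44710944 (minus strand), and the *Otx2* window is chr14:48667459-48667758 (minus strand), the one of its 4 whose start is shared by the most GENCODE transcripts, 5.

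Pax5: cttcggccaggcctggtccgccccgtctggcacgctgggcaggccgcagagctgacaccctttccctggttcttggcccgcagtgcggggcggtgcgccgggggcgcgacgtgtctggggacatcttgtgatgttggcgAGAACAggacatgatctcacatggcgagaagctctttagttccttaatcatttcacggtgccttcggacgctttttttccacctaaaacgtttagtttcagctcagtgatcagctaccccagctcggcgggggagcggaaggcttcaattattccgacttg
Otx2: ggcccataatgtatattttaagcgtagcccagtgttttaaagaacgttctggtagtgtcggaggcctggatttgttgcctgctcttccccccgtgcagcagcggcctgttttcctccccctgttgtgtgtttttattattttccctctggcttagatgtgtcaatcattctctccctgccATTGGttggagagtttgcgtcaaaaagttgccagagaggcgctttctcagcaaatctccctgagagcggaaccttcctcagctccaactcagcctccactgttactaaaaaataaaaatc

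The *Pax5* window held 1 AGAACA, a motif found in 19.0% of the 32851 RefSeq promoter windows, and 23 CpG, where the median window held 7. No GENCODE transcript of *Pax5* held the last 50 bases of that window, so that the 2 annotations place its start differently. The *Otx2* window held 1 CCAAT, found in 37.4% of windows, and 8 CpG. Among the other *Otx2* windows, that at chr14:48665060-48665359 (minus strand) held 3 TAATTA and 1 TAATCC, which were found in 5.29% and 7.06% of windows. The *Otx2* window at chr14:48662685-48662984 (minus strand) held 1 AGAACA (as TGTTCT, on the other strand), and that at chr14:48667595-48667894 (minus strand) held 1 TAATTA. The windows of *Pax7*, *Gbx2*, *Lmx1a* and *Pax2* held none of the 4 motifs, and those of *En1* and *Lmx1b* held 2 CCAAT each. These matches describe letters only, and no binding was measured.

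The wider isthmic program was read from a list of 16 organizer signals and FGF read-outs, of which 15 passed the filter. Of these, 2 were called higher and 0 lower (6.49% and 7.27% of all tested genes), with a median Log2FC of -0.04. The called genes were *Fgfr3*, an FGF receptor of ventricular zone cells, and *Cnpy1*, a gene of the isthmus that promotes FGF signalling. *Fgfr3* had 57.1, 57.5, 62.5 and 54.1 CPM in control F36, F37, M30 and M31 and 67.8, 65.5, 65.8 and 67.5 CPM in stress F34, F35, M28 and M29 (Log2FC = 0.21, SE 0.04, edgeR adjusted p = 0.000662). *Cnpy1* had 31.7, 29.1, 31.3 and 27.2 CPM and 35.4, 33.4, 32.1 and 39.4 CPM in the same brains (Log2FC = 0.23, SE 0.06, edgeR adjusted p = 0.00618). For both, all 4 stressed brains were above all control brains, and *Cnpy1* was also the list gene whose profile over the 8 brains came nearest to that of *Pax5*. The other 13 tested genes were not called, and 9 of them had a negative Log2FC. Among the negative were the ligands *Fgf17* (-0.33, SE 0.18), *Fgf18* (-0.18, SE 0.12) and *Wnt1* (-0.50, SE 0.30). The FGF read-outs *Etv4* (-0.21, SE 0.07, edgeR adjusted p = 0.0580), *Spry4* (-0.26, SE 0.10, edgeR adjusted p = 0.0796), *Spry1* (-0.16, SE 0.07) and *Spry2* (-0.11, SE 0.06) were negative as well. *Dusp6* (-0.04, SE 0.05) and *Etv5* (-0.04, SE 0.04) were negative by less than their SE or about as much. The uncalled *Il17rd* (0.11, SE 0.05), *Fgfr2* (0.06, SE 0.04), *Sp8* (0.03, SE 0.05) and *Fgfr1* (0.01, SE 0.03) were positive. The organizer signal *Fgf8* itself had 4 to 14 counts per brain and did not pass the filter.

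The 17 transcription factors of bordering territories had a median Log2FC of 0.10, close to the median of 0.11 of the 10 patterning genes. Of the 17, 3 were called higher and 0 lower (6.49% and 7.27% of all tested genes). They were *Emx2*, a factor of dorsal forebrain (Log2FC = 0.22, edgeR adjusted p = 0.00164), *Pax6*, of forebrain and other progenitors (Log2FC = 0.14, edgeR adjusted p = 0.00384), and *Otx1*, the paralog of *Otx2* (Log2FC = 0.20, edgeR adjusted p = 0.00647). *Otx1* measured 23.6, 22.8, 24.3 and 21.5 CPM in control F36, F37, M30 and M31 and 26.7, 25.2, 26.6 and 27.3 CPM in stress F34, F35, M28 and M29, so that both *Otx* genes were higher in every stressed brain than in any control brain.

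Genes of the neurons that arise in these territories moved in both directions. Of 10 tectal and midbrain GABAergic genes, 6 were called higher and 0 lower (6.49% and 7.27% of all tested genes), with a median Log2FC of 0.17. *Tal2*, a selector of midbrain GABAergic neurons, had the largest Log2FC of that list (0.75, SE 0.09, edgeR adjusted p = 4.19e-06). The study had already singled it out in a larger set of brains, which by its sample sheet includes those used here. The study also reported *Tal2* raised by real-time PCR in other animals of both sexes. Others called in the GABAergic list were *Tfap2b* (Log2FC = 0.21, edgeR adjusted p = 0.000153) and *Tal1* (Log2FC = 0.16, edgeR adjusted p = 0.0206). Of 12 dopamine and serotonin neuron genes, 4 were called lower and 0 higher (7.27% and 6.49% of all tested genes), with a median Log2FC of -0.12. These included *Drd2*, the dopamine receptor D2 (Log2FC = -0.37, edgeR adjusted p = 0.00100), *Ret*, the receptor of GDNF (Log2FC = -0.28, edgeR adjusted p = 0.00317), and *Aldh1a1*, a retinaldehyde dehydrogenase of ventral dopamine neurons (Log2FC = -0.34, edgeR adjusted p = 0.0152). The remaining called gene was *Slc6a4*, the serotonin transporter (Log2FC = -0.49, edgeR adjusted p = 0.0200). The serotonin neuron genes *Tph2* (-0.10) and *Fev* (-0.29) were negative and not called. Of the same list, these genes of dopamine synthesis and transport were not called, with a Log2FC of 0.06 for *Th* (tyrosine hydroxylase), 0.09 for *Ddc*, 0.02 for *Slc18a2* and 0.0038 for *Slc6a3* (the dopamine transporter). *Drd2* and *Ret* are also expressed outside these neurons, and *Lmx1a*, *Lmx1b* and *En1*, which act in the same lineage, were not called.

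In the cerebellar anlage list 3 of 9 tested genes were called higher and 0 lower, *Lhx1* (Log2FC = 0.21, edgeR adjusted p = 0.00759), *Skor2* (Log2FC = 0.38, edgeR adjusted p = 0.0148) and *Lhx5* (Log2FC = 0.15, edgeR adjusted p = 0.0346). Among 8 thalamic genes 3 were called higher, with *Lhx9* (Log2FC = 0.19, edgeR adjusted p = 0.00111) and *Lef1* (Log2FC = 0.17, edgeR adjusted p = 0.0223) among them, and 1 lower, *Calb2*, which encodes calretinin (Log2FC = -0.23, edgeR adjusted p = 0.000801). The 6 forebrain region genes gave 3 higher and 0 lower, *Emx1* (Log2FC = 0.25, edgeR adjusted p = 0.00241), *Tbr1* (Log2FC = 0.11, edgeR adjusted p = 0.00919) and *Dlx2* (Log2FC = 0.13, edgeR adjusted p = 0.0333). The shares of all tested genes, for comparison with these counts, were 6.49% called higher and 7.27% called lower. A median Log2FC of 0.06 in the cerebellar, 0.09 in the thalamic and 0.10 in the forebrain list compares with 0.11 for the 10 patterning genes. The 10 hindbrain and spinal cord genes, 8 of them the Hox genes used above, had a median Log2FC of -0.30 with 0 called in either direction.

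**Figure D5:**
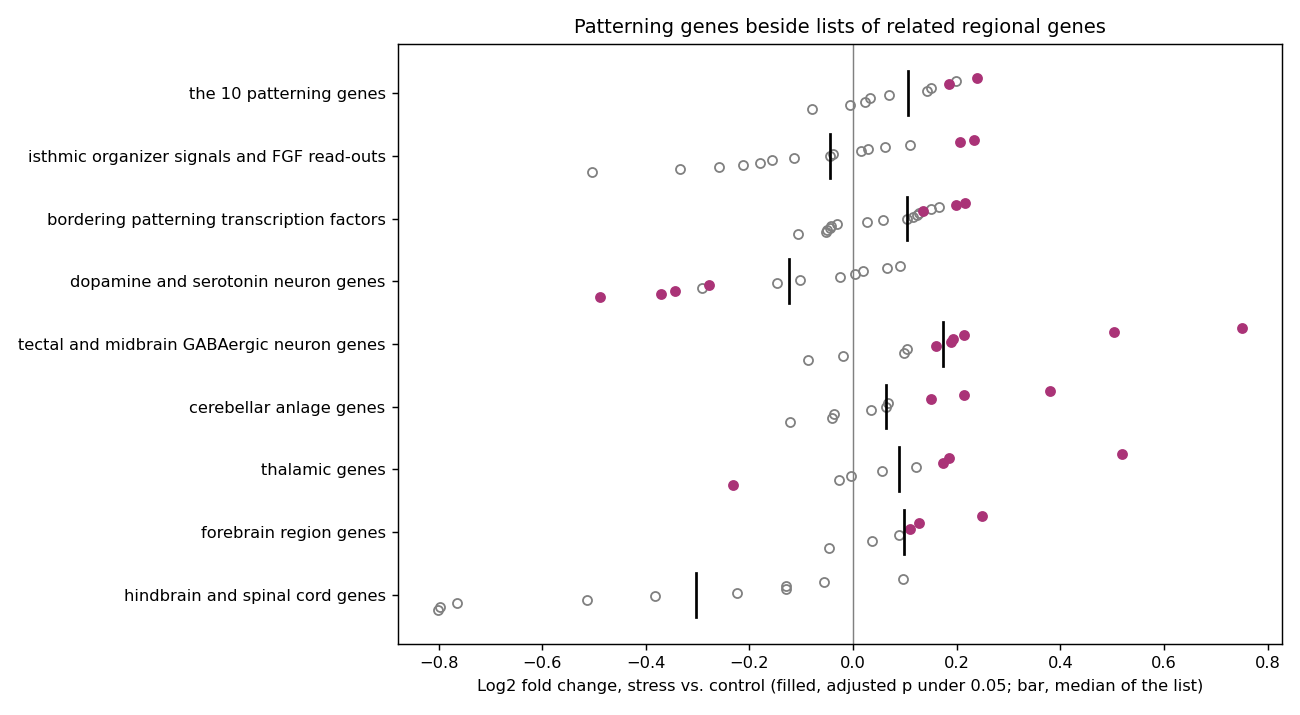
Log2 fold change of stress vs. control (horizontal axis) of every tested gene in the list of 10 patterning genes and in 8 lists of regional genes, with called genes filled, others open, and the median of each list as a black bar. The patterning genes have a median of 0.11 and 2 filled points on the right, and the hindbrain and spinal cord list has a median of -0.30 and no filled point.

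Cell class markers moved between the groups in the same brains, where 6.49% of all tested genes were called higher and 7.27% lower. Progenitor and cycling markers were called higher in 5 of 7 genes, among them *Top2a* (Log2FC = 0.24), *Mki67* (0.21) and *Vim* (0.12), and 0 lower. *Hes1* (-0.08) and *Hes5* (-0.10) of that list were negative and not called. The summed level of the progenitor list was 1034 to 1134 CPM in control and 1111 to 1248 CPM in stressed brains. Neuron markers were called lower in 5 of 7 genes, among them *Syp* (Log2FC = -0.18), *Rbfox3* (-0.13) and *Syt1* (-0.11), and 0 higher, with sums of 5118 to 5291 CPM in control and 4952 to 5116 CPM in stressed brains. The part of these shifts in the rise of *Otx2* and *Pax5* was not tested.

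Markers of tissues around the brain differed between brains. Their counts stand beside the same shares of all tested genes, 6.49% called higher and 7.27% called lower. Choroid plexus markers, of interest since *Otx2* is also expressed in choroid plexus, were called higher in 2 of 8 tested genes and lower in 0, and summed to 7.97 to 17.1 CPM in control and 7.46 to 38.7 CPM in stressed brains. Of their number, *Ttr* (transthyretin) was 6.95, 0.564, 1.05 and 2.04 CPM in control F36, F37, M30 and M31 and 29.9, 6.76, 5.02 and 0.656 CPM in stress F34, F35, M28 and M29, and *Kcnj13* had at most 3 counts in every brain. The median Log2FC of the choroid plexus list was -0.04, with 4 of the 8 tested genes positive. *Kl* (-0.37), *Prlr* (-0.25), *Folr1* (-0.20) and *Sostdc1* (-0.14) were negative and not called. The part of choroid plexus in the *Otx2* difference was not tested. Meninges and mesenchyme markers were called higher in 3 of 6 tested genes (*Col1a1*, *Col1a2*, *Col3a1*) and lower in 0, with sums of 16.4 to 29.6 CPM in control and 21.3 to 63.8 CPM in stressed brains. The sum was 63.8 CPM in stress M28, and 32.3, 21.3 and 28.7 CPM in stress F34, F35 and M29. *Foxc1* (-0.10) and *Twist1* (-0.17) were negative and *Dcn* (0.39) was positive, and none of these was called. In skeletal muscle, where *Pax3* and *Pax7* are also expressed, 4 of 7 markers (*Myod1*, *Myf5*, *Myog*, *Ckm*) had at most 3 counts in every brain, and 0 of 3 tested genes were called. Among eye markers, relevant to *Otx2* and *Pax2*, 1 of 4 tested genes was called higher, *Dct* (Log2FC = 0.38, edgeR adjusted p = 0.0288), 0 were lower, and *Crx* had at most 3 counts in every brain. The median Log2FC of the eye list was -0.014, with 2 of the 4 positive. *Six6* (-0.35) and *Pmel* (-0.28) were negative and not called.

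The profile of each gene over the 8 brains was set beside those of 122 tested genes of the lists, by the root mean square difference of log2 CPM after centring each gene on its own mean. The smallest differences belonged to *Otx2* with *Lef1* (0.0425), *Pax7* with *Irx3* (0.0495), *En1* with *Th* (0.0515) and *En2* with *Otx1* (0.0531). *Pax3* was nearest to *Lhx1* (0.0755), *Pax2* to *Gbx1* (0.0848), *Lmx1a* to *Etv5* (0.0913), *Gbx2* to *Lhx1* (0.0922), *Pax5* to *Cnpy1* (0.0935) and *Lmx1b* to *Pou4f1* (0.102). *Gbx1*, a relative of *Gbx2* that is expressed in the dorsal spinal cord, had 8.77, 5.92, 6.49 and 5.41 CPM in control F36, F37, M30 and M31 and 4.96, 8.37, 5.23 and 7.19 CPM in stress F34, F35, M28 and M29, and was, like *Pax2*, among the 20 genes called for the slope on the Hox level. A gene that varies little is near to many others by this measure, so that the values describe likeness over these 8 brains and no more.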

How the data were processed

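Bulk RNA-seq libraries of 8 fetal mouse brains were analysed. Per the paper's methods, the paired reads were trimmed with Trim Galore and aligned with TopHat2 2.1.1 (mm10), and pairs falling on GENCODE exons were counted by featureCounts 1.6.3, with no option for strand or for overlapping genes. What the authors deposited is a raw count for each gene, not normalized. Of 54752 gene identifiers, 54723 were matched to a symbol. The counts were filtered (filterByExpr, minimum count 10, by group), normalized by TMM and fitted with edgeR 4.0.16 (glmQLFit and glmQLFTest, R 4.3.3) with sex and condition, and adjusted by the Benjamini-Hochberg method over 17865 genes. SE is the Log2FC divided by the square root of F, and 95% intervals use the degrees of freedom of the test. The authors' model also held batch, which the labels used here do not give.

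Totals were 25320109 to 29105710 counts per brain, and 3 counts corresponded to 0.103 to 0.118 CPM. The biological coefficient of variation was 3.14%. On simulated data for stress vs. control over 17865 genes, 76.5% of 200 genes changed by a Log2FC of 0.5 were recovered, with 12 false calls. The Log2FC of the 10 genes ran from -0.08 to 0.24, so that this rate does not describe changes of their size.

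Alternatives were DESeq2 1.42.0, median-of-ratios and upper-quartile normalization, no filter, no sex covariate, each sex alone and each brain left out. The fits with the Hox level as a covariate and without control F36 and stress F35 were added after the values were seen. Named list genes were up to 3 called genes per list with the smallest p, or the most abundant gene where none was called, plus genes overlapping a patterning gene and the nearest profile of each. *Slc6a4*, *Hoxb8* and *Fgf8*, and *Kcnj13* and other undetected markers, were named after their values were seen. So were the uncalled organizer, dopamine, serotonin, progenitor, meninges, eye and choroid plexus genes. The 10 genes and 14 lists were chosen with earlier results of these data known. Some items of 1 list are not reported here, and the counts of that list leave them out.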

Additional observations from a re-analysis of the deposited data

Results flagged for a closer look

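In a check of single brains against the other 3 of their group (gap to the nearest brain over the whole range, against Dixon's critical value at 95%), 7 of 88 tests stood out, and chance gives about 1 in 20. None of the 10 patterning genes was among them. *Hoxa5* at 39.97 CPM in control F36, above 17.4 CPM in the next control brain, belongs to the Hox difference described above, and so names the brain in which *Pax2* was highest among the controls. *Col3a1* was also highest in control F36, at 8.63 CPM where the other controls had 4.72 to 4.82 CPM. Control M30 stood apart for *Tal1* (30.9 CPM, high), *Dct* (3.45 CPM, high) and *Calb2* (43.8 CPM, low). Stress M29 stood apart for *Rbfox3* (73.4 CPM, low), and stress M28 for *Tal1* (34.99 CPM, high).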

How the results depend on the processing

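Of the 10 patterning genes, 2 were called higher and 0 lower in the fit of all 8 brains (6.49% and 7.27% of all tested genes). Among the males alone 2 were called higher as well, but these were *Pax5* and *En2*, and *Otx2* was not called (3.68% of all genes were called higher). The count of higher calls was 1 among the females alone (*Otx2*) and 1 to 3 with each brain left out, where it was 1 without stress M29 (*Pax5* lost) and 3 without stress F35 (*En2* gained, edgeR adjusted p = 0.0484). Genes not called changed sign in some fits. Among the females alone the Log2FC was -0.011 for *En1*, -0.030 for *Gbx2*, -0.034 for *Lmx1a* and 0.018 for *Lmx1b*. With the Hox level as a covariate it was 0.12 for *Pax2* and 0.12 for *Lmx1b*, and without control F36 and stress F35 it was 0.057 for *Lmx1b*. With each brain left out it ran from -0.0088 to 0.055 for *En1*, -0.22 to 0.040 for *Pax2*, -0.019 to 0.14 for *Gbx2*, -0.050 to 0.075 for *Lmx1a* and -0.13 to 0.12 for *Lmx1b*. The cause of these changes was not tested. By CPM without length, the rank in the control brains was 5 for *En1*, 3 for *Pax5*, 9 for *Pax3*, 4 for *Pax7*, 8 for *Gbx2* and 10 for *Lmx1a*, and that of the other 4 genes stayed. Of the up to 3 called genes per list with the smallest p, 62 values under the other fits and 52 with a brain left out kept their direction and missed the threshold, and 224 and 204 kept both. Among the same genes, *Cnpy1*, *Tbr1* and *Col1a1* were called in 7 of the 8 fits with a brain left out, *Lhx1* and *Ttr* in 6, *Skor2*, *Col1a2* and *Syt1* in 5, *Aldh1a1* and *Tal1* in 4, *Lhx5*, *Lef1* and *Dct* in 3, *Dlx2* in 2 and *Kcne2* in 1. No paired analysis was possible because the groups share no replicate numbers. With 4 brains and 1 litter a group, a missed threshold such as that of *En2* does not show that the groups are alike.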
